A study of Rattus norvegicus with 8 samples.

Results

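The PPAR, ERR and PGC-1 regulators, which set how much fatty acid a heart muscle cell burns, were followed in rat cardiomyocytes given extra miR-222. The set holds 9 genes chosen by symbol: the peroxisome proliferator-activated receptors Ppara, Ppard and Pparg, the estrogen-related receptors Esrra, Esrrb and Esrrg, the receptor partner Rxra, and the coactivators Ppargc1a and Ppargc1b. The choice was made with earlier results of these data known. Each of the 9 was measured by the 1 probe set that the array annotation pairs with that gene alone, and together they are 9 of 14506 genes measured. The cells were ventricular cardiomyocytes of newborn rats in primary culture, transfected by Lipofectamine RNAiMAX with a miR-222 precursor (4 arrays) or with a control precursor of scrambled sequence (4 arrays). Both RNAs were given at 0.4 µM, and RNA was taken 48 h later. The precursor is a made RNA that the cell's own enzymes turn into mature miR-222. The control is an RNA with a sequence of its own, and no untransfected cells are part of the comparison. The labels do not say whether the 4 arrays of a group stand for 4 separate cultures. The p-values therefore reflect the spread among these samples alone, which may be technical.

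PPARs are nuclear receptors that are switched on by fatty acids and their derivatives and that bind DNA as a pair with a retinoid X receptor such as RXRα, the product of Rxra. ERRs resemble the estrogen receptor but answer to no known natural hormone, and they bind DNA alone or in pairs. PGC-1α and PGC-1β, the products of Ppargc1a and Ppargc1b, do not bind DNA themselves but dock on PPARs and ERRs and raise the transcription of genes for fatty acid oxidation and mitochondria, a program that the heart turns up after birth.

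The microRNA that was added and the start regions of genes that the results turn on are shown first, all from RefSeq on the rat build GRCr8. Capitals in the microRNAs mark the seed, bases 2 to 8 from the 5′ end, which pairs with target transcripts. The seed of miR-222-3p is the same 7 bases as that of its neighbour on chromosome X, miR-221-3p, so both would be read as 1 seed family.
rno-miR-222-3p: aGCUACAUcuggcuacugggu
rno-miR-221-3p: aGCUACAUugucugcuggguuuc

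Start regions of 300 bases were matched for 8 of the 9 genes, with 12 regions in all, since Pparg and Esrrg have several starts in the table. Ppard had no entry. Regions were searched on both strands for the ERR element TNAAGGTCA, for the repeat bound by PPAR and RXR pairs, in which AGGTCA stands on both sides of 1 free base, and for a single AGGTCA, whose letters are also part of both longer motifs. The ERR element was in 0 of the 12 regions and in 1.2% of 33469 regions of all genes. The spaced repeat was in 0 of 12 and in 0.0538% of all regions. The single AGGTCA was in 1 of 12, at an Esrrg start, and in 16.2% of all regions. The regions of Ppara and Esrrb are printed because these members rose. That of Perm1, a muscle protein known to be induced by PGC-1 and ERR, is printed because it rose too and holds 1 AGGTCA. This match is on the opposite strand, in capitals, and the Perm1 region held 0 matches of either longer motif. The region of Rxrg, which also rose, was searched as well and held 0 matches of any of these motifs. Whether the match in Perm1 is bound was not tested. No match says only that these letters are not in these windows.
Ppara, chr7:118712357-118712656, plus strand: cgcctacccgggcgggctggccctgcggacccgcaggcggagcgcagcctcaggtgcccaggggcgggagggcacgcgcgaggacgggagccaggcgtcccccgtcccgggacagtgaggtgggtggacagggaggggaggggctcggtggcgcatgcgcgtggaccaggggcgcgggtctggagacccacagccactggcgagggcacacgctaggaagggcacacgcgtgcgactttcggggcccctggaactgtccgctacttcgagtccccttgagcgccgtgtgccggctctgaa
Esrrb, chr6:111738412-111738711, plus strand: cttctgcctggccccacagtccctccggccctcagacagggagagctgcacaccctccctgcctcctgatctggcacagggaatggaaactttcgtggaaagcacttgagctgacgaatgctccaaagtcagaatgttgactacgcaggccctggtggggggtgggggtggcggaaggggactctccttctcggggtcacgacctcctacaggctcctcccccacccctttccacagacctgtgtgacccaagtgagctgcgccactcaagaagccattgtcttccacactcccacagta
Perm1, chr5:172081999-172082298, plus strand: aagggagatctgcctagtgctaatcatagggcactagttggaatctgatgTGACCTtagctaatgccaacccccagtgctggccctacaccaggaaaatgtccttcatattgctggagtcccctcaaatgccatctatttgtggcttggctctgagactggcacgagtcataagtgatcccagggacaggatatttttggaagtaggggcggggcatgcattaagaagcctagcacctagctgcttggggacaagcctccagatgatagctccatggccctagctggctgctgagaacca

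Values below are log2 intensities of the deposited arrays, whose medians lay between 7.66 and 7.77, and a fold change is the miR-222 mean less the control mean on that scale, given with its standard error (SE) from limma. A gene is said to have risen or fallen where its Benjamini-Hochberg p over every probe set on the array was under 0.05. Arrays correlated at 0.989 to 0.993 within groups and at 0.983 to 0.989 between groups. Cardiomyocyte markers were bright in both groups, with all 9 at 12.13 or more on every array. In total RNA of a culture, fewer cells of a type and less RNA per cell cannot be told apart.

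Of the 9 regulators, Ppara, Ppard and Esrrb rose with miR-222, and none fell. Over all genes 11.7% were called higher, 13% lower and 24.7% in either direction by the same limma test, and these shares are the background for 3 higher and 0 lower. Because the members were chosen with earlier results of these data known, the shares do not test that count. No member was lower at an unadjusted p under 0.05 in limma, and in the exact permutation test none of the members with a negative fold change reached the smallest p that 4 arrays against 4 allow, 0.0286. The median fold change of the 9 was 0.12, beside 0.01 over all genes. The miR-222 and control arrays did not overlap in 3 members, where 33.3% of all genes showed such a separation. The count of 3 was 1, Ppara alone, when each array was centred on its median, and also without miR-222 replicate 1 or without control replicate 2, 3 or 4. In fits without 1 array, 8.73% to 10.8% of all genes were called higher. The count was 2 under quantile normalization, where Esrrb did not pass. Esrrb was also the only one of the 3 lost with array weights, with the mean of all probe sets and without control replicate 1. Without miR-222 replicate 2, Esrrb did not pass and Pparg did. Esrrb lost its call in 10 of 16 alternative settings, so Ppara, Ppard and Esrrb did not pass together in those.

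**Figure D1:**
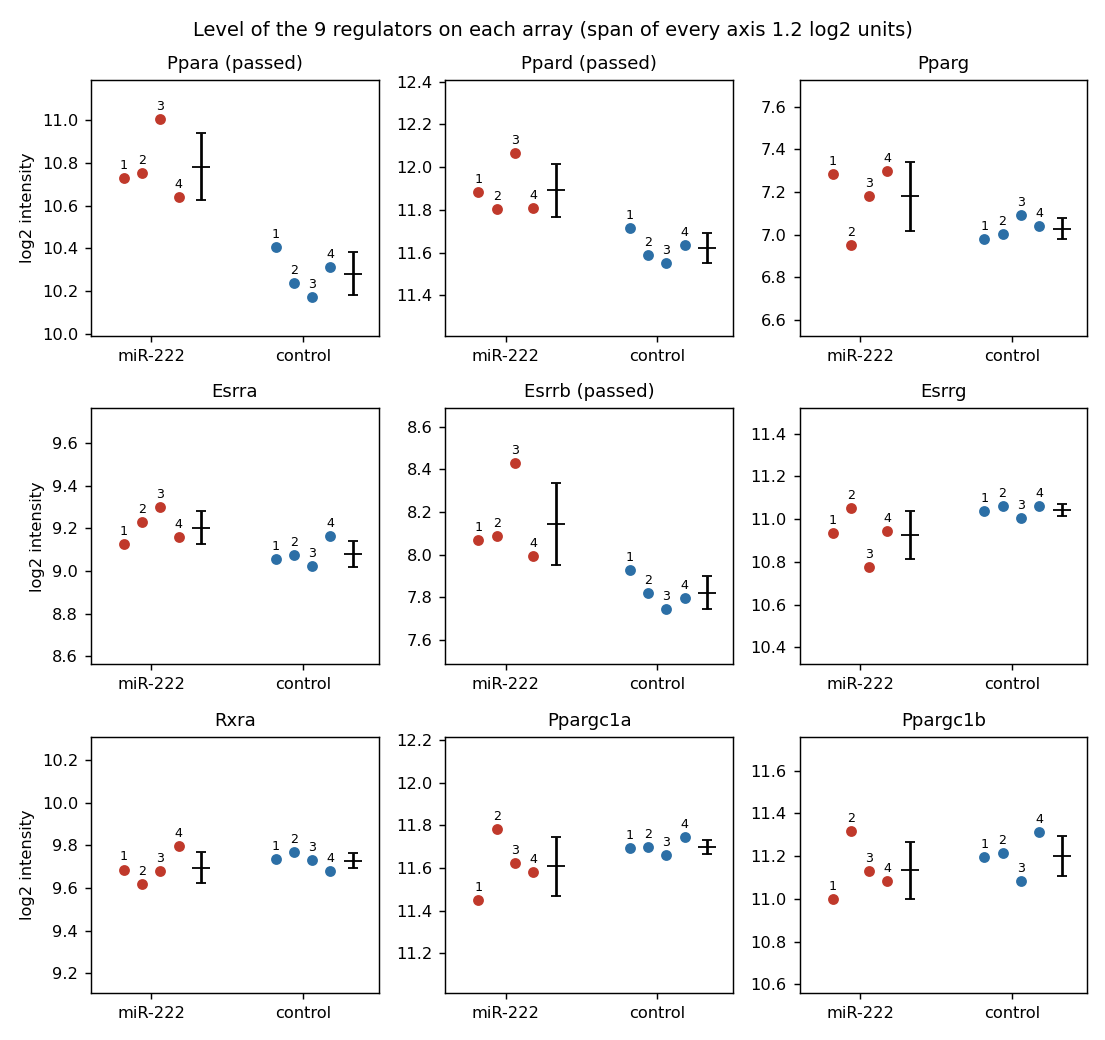
Log2 intensity of each regulator on every array, with 4 miR-222 arrays (red, left) and 4 control arrays (blue, right) numbered by replicate, and the mean with its SD in black. Every panel spans 1.2 log2 units, and the groups are apart for Ppara, Ppard and Esrrb and overlap for the other 6.

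Ppara (probe set 10898359) encodes PPARα, the main fatty acid receptor of the heart and a driver of fatty acid oxidation genes. It stood at 10.73, 10.76, 11.01 and 10.64 on the miR-222 arrays, against 10.41, 10.24, 10.17 and 10.31 on the control arrays. Every miR-222 array lay above every control array, and miR-222 replicate 3 was the highest of the 8. The fold change was 0.50 (SE 0.09, adjusted p = 0.0053 by limma), which is 1.42-fold, and 335 of the 14506 genes had a larger rise. The call held without any single array, at fold changes of 0.43 to 0.55 and adjusted p of 0.00581 to 0.019, and the lowest value was the one without miR-222 replicate 3.

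Ppard (probe set 10828714) encodes PPARδ, a receptor found in most tissues that shares many oxidation targets with PPARα. It measured 11.88, 11.80, 12.07 and 11.81 with miR-222, against 11.72, 11.59, 11.55 and 11.64 in control cells. The groups did not overlap, although miR-222 replicate 2 and control replicate 1 were close to each other. Its fold change was 0.27 (SE 0.07, adjusted p = 0.0309 by limma). The call was lost without miR-222 replicate 1 or control replicate 2, 3 or 4, with adjusted p up to 0.0806.

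Pparg (probe set 10857984) encodes PPARγ, the receptor that drives fat cell formation. Its values were 7.28, 6.95, 7.18 and 7.30 with miR-222, against 6.98, 7.003, 7.09 and 7.04 with the control precursor. Replicate 2 of miR-222 was the lowest of all 8 arrays while the other 3 lay above every control array, so the groups overlapped. The fold change of 0.15 (SE 0.08, 95% confidence interval -0.03 to 0.33) did not pass (adjusted p = 0.249), and without miR-222 replicate 2 it was 0.23 and passed (adjusted p = 0.0233). The probe set was dim, with 28.6% of genes dimmer.

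Among the ERRs the changes ran from 0.32 to -0.12. Esrrb (probe set 10886121), which is best known for its role in pluripotent stem cells and the placenta of mice, had values of 8.07, 8.09, 8.43 and 7.996 with miR-222, against 7.93, 7.82, 7.74 and 7.80 in control cells. The groups did not overlap, and miR-222 replicate 3 stood well above the other 7 arrays. The probe set was rather dim, with 44.4% of genes dimmer. The fold change was 0.32 (SE 0.10, adjusted p = 0.0499 by limma), next to the threshold. Without miR-222 replicate 3 it was 0.23 and still passed (adjusted p = 0.033). It was lost without miR-222 replicate 1 or 2 or any single control array, with adjusted p up to 0.118, and it was also lost under quantile normalization, median centring and array weights.

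Esrra (probe set 10728247) encodes ERRα, which PGC-1α uses to raise mitochondrial genes. It measured 9.12, 9.23, 9.30 and 9.16 with miR-222, against 9.06, 9.07, 9.02 and 9.16 in control cells. Control replicate 4 was as high as the lower miR-222 arrays. The fold change of 0.12 (SE 0.05, 95% interval -0.001 to 0.25) did not pass (adjusted p = 0.165). Esrrg (probe set 10766588) encodes ERRγ, which is needed for the switch of the newborn mouse heart to oxidative metabolism. Its values were 10.93, 11.05, 10.78 and 10.94 with miR-222, against 11.04, 11.06, 11.005 and 11.06 in control cells. All but 1 of the miR-222 arrays lay under every control array, replicate 2 being the exception, and the fold change of -0.12 (SE 0.06, 95% interval -0.25 to 0.02) did not pass (adjusted p = 0.242).

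Rxra (probe set 10834719), the shared partner of the PPARs, was nearly level between the groups. It had values of 9.69, 9.62, 9.68 and 9.80 with miR-222, against 9.73, 9.77, 9.73 and 9.68 with the control precursor, a fold change of -0.03 (SE 0.05, adjusted p = 0.714). Its 95% interval was -0.14 to 0.08, and the 2 groups overlapped.

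Neither PGC-1 gene passed the test. Ppargc1a (probe set 10772986) measured 11.45, 11.78, 11.62 and 11.58 with miR-222, against 11.70, 11.70, 11.66 and 11.74 in control cells, and its fold change was -0.09 (SE 0.07, 95% interval -0.25 to 0.07, adjusted p = 0.439). Ppargc1b (probe set 10804678) measured 11.001, 11.32, 11.13 and 11.08 with miR-222, against 11.20, 11.21, 11.09 and 11.31 in control cells, and its fold change was -0.07 (SE 0.08, 95% interval -0.25 to 0.11, adjusted p = 0.622). The miR-222 arrays were in the same order for both coactivators, with replicate 2 highest and replicate 1 lowest. Within each array the log2 difference of Ppargc1a and Ppargc1b was 0.47 ± 0.02 with miR-222 and 0.50 ± 0.06 in control cells (mean ± SD, n = 4 each, exact permutation p = 0.571).

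**Figure D2:**
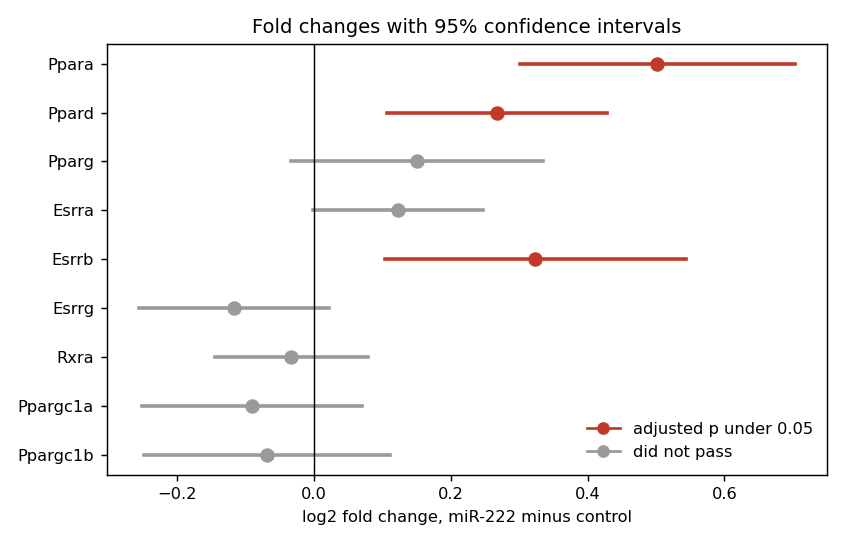
Log2 fold change of each regulator, miR-222 minus control, as points with 95% confidence intervals from limma, with genes that passed in red. The intervals of Ppara, Ppard and Esrrb lie above 0, and the interval of Rxra is the narrowest, from -0.14 to 0.08.

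Whether relatives moved apart was tested on the log2 difference of 2 genes within each array, over 7 pairs with exact 2-sided permutation tests and p-values adjusted over the pairs. The SE of a pair was taken from the variances of its differences within the groups, not from limma. Ppara gained 0.23 (SE 0.04) over Ppard with miR-222, in a comparison where the groups did not overlap (exact p = 0.0286, adjusted p = 0.0667). Esrrb gained 0.44 (SE 0.15) and Esrra 0.24 (SE 0.09) over Esrrg, with the same exact and adjusted p. Ppara gained 0.35 (SE 0.14) over Pparg (adjusted p = 0.1), Ppard 0.12 (SE 0.11) over Pparg (adjusted p = 0.3), and Esrra lost 0.20 against Esrrb (difference -0.20, SE 0.08, adjusted p = 0.12). No pair passed after adjustment, and at this size the smallest exact p passes only where at least 5 of the 7 pairs reach it.

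The 3 members that rose shared their pattern over the arrays, with miR-222 replicate 3 the highest of 8 and control replicate 3 the lowest. Esrra, which did not pass, had the same highest and lowest arrays. How often control replicate 3 was the lowest over all genes was not counted. Replicate 3 of miR-222 was also the highest array for 14 of 22 genes called higher in the lists described below (63.6%) and for 866 of all 1692 genes called higher (51.2%), so a peak in that array was common among genes that rose. By the root mean square distance between gene-centred log2 values over the 8 arrays, the genes most like Ppara were the thiamine transporter gene Slc19a2 (distance 0.05), Podxl, which encodes the surface protein podocalyxin (0.05), and the potassium channel gene Kcnd3 (0.05). Nearest to Ppard were the mitochondrial helicase gene Twnk, the lysosomal glucosidase gene Gaa and Ptgfrn, all at 0.04. Nearest to Esrrb were Kctd13 (0.04), the protease gene Adamts12 (0.05) and Bdh1, which encodes an enzyme of ketone body use (0.05). Of these nearest genes, Twnk, Ptgfrn and Kctd13 did not pass (adjusted p = 0.0787, 0.0591 and 0.059 by limma), and the others rose.

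The limma counts of this list and of each list below stand beside 11.7% of all genes called higher and 13% called lower. In fits without 1 array these shares were 8.73% to 10.8% higher and 9.68% to 12.6% lower. For the other alternative settings they were not computed. Whether any list differed from these shares was not tested. Among 15 measured partners and coregulators of these receptors, 5 rose and none fell in limma, while 7 were higher and 2 lower at an unadjusted p under 0.05. The median was 0.07. Rxrg, which encodes the retinoid X receptor RXRγ, had the largest change around the regulators. It measured 9.70, 9.64, 10.41 and 9.79 with miR-222, against 8.66, 8.61, 8.68 and 8.82 in control cells. All miR-222 arrays were far above all control arrays, at a fold change of 1.19 (SE 0.16, adjusted p = 0.00178), or 2.28-fold, and at 1.02 without miR-222 replicate 3. The sister gene Rxrb stood at -0.01 (SE 0.04, adjusted p = 0.94), close to Rxra, and the differences between the RXR genes were not tested.

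Perm1, the muscle partner of PGC-1 and ERR, measured 9.99, 10.25, 10.34 and 9.99 with miR-222, against 9.56, 9.55, 9.52 and 9.60 in control cells. It rose by 0.59 (SE 0.09, adjusted p = 0.00239) with no overlap of the groups. Kat2a, which encodes the acetyltransferase GCN5 that acts on PGC-1α, rose by 0.28 (SE 0.05, adjusted p = 0.00527). The receptor coactivator gene Ncoa3 rose by 0.27 (SE 0.06, adjusted p = 0.0182), a call lost without miR-222 replicate 1 or control replicate 1, 2 or 4. Lpin1, which encodes lipin-1, a phosphatidate phosphatase and partner of PGC-1α, rose by 0.26 (SE 0.07, adjusted p = 0.0313), and of the fits without 1 array its call held in those without miR-222 replicate 2 or 3. The count of 5 was 3 without control replicate 1, 2 or 4 and with arrays centred on their medians. Pprc1, the remaining PGC-1 family gene, had a fold change of -0.06 (SE 0.06, adjusted p = 0.608).

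Of 16 measured genes listed here as upstream regulators of PGC-1, 1 rose, 2 fell and 13 did not pass, with a median of -0.001. Whether each of them acts upstream or downstream of PGC-1 in these cells was not tested. Prkaa1, which encodes the catalytic subunit α1 of the energy sensor AMPK, measured 10.25, 10.23, 10.15 and 10.31 with miR-222, against 10.67, 10.59, 10.57 and 10.47 in control cells. It fell by 0.34 (SE 0.06, adjusted p = 0.00423) and the groups did not overlap. The subunit α2 gene Prkaa2, the main form in muscle, had a fold change of 0.00 (SE 0.04, adjusted p = 0.981). Flcn, which encodes folliculin, a negative regulator of the AMPK and PGC-1 axis, had a fold change of -0.27 (SE 0.04, adjusted p = 0.00239), and Sirt3, which encodes a mitochondrial deacetylase, rose by 0.32 (SE 0.06, adjusted p = 0.00567).

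Among genes that supply fatty acids or store lipid, 20 were measured. Of these 5 rose and none fell in limma, while 5 were higher and 2 lower at an unadjusted p under 0.05, and the median was 0.04. Dgat2, an enzyme of the last step of triglyceride synthesis, measured 9.48, 9.38, 9.76 and 9.35 with miR-222, against 8.82, 8.81, 8.81 and 8.75 in control cells. It rose by 0.70 (SE 0.09, adjusted p = 0.00126). Mgll, the lipase that splits monoglycerides, rose by 0.61 (SE 0.06, adjusted p = 3.38e-04), with 9.71, 9.70, 9.84 and 9.73 on miR-222 arrays against 9.22, 9.20, 9.07 and 9.05 on control arrays. Both genes separated the groups on every array. The acyl-CoA synthetase gene Acsl4 rose by 0.48 (SE 0.06) and its relative Acsl1, a PPARα target, by 0.42 (SE 0.10), while Acsl3 had a fold change of -0.26 (SE 0.08) that did not pass (adjusted p = 0.0561). Vldlr, a lipoprotein receptor, rose by 0.29 (SE 0.06). The lipoprotein lipase gene Lpl, the fatty acid carriers Cd36 and Fabp3, and the lipases and droplet coats Pnpla2, Plin2 and Plin5 did not pass. Dgat1, for the same last step as Dgat2, had a fold change of -0.01 (SE 0.04, adjusted p = 0.85) and did not pass either.

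PPAR target genes of fatty acid oxidation changed in both directions: 7 of 24 rose, 5 fell and 12 did not pass, with a median of 0.06. Ehhadh, a peroxisomal oxidation enzyme and classic PPARα target of the rodent liver, measured 8.48, 8.39, 8.87 and 8.48 with miR-222, against 7.88, 7.80, 8.01 and 7.86 in control cells. It rose by 0.66 (SE 0.10, adjusted p = 0.00338), with every miR-222 array above every control array. Hsd17b4, the other peroxisomal bifunctional enzyme, rose by 0.36 (SE 0.05, adjusted p = 0.0015), and Acacb, whose product makes the malonyl-CoA that restrains fatty acid entry into mitochondria, rose by 0.32 (SE 0.04, adjusted p = 0.00126). In the mitochondrial pathway Cpt1a, the liver form of the entry enzyme, had a fold change of -0.48 (SE 0.07, adjusted p = 0.0027), while Cpt1b, the muscle form, measured 0.01 (SE 0.06, adjusted p = 0.967). Eci1 fell by 0.19 and Acadm, the medium-chain dehydrogenase, by 0.18, the last call lost without control replicate 1, 2 or 3. Rises occurred in the mitochondrial pathway too, for Acaa2 at 0.26 (adjusted p = 0.027 by limma) and Acot2 at 0.31 (adjusted p = 0.039). The remaining rises were Eci2 at 0.18 and Pex11a at 0.21, and the remaining falls were Decr1 at -0.16 and Etfa at -0.14. The count of 7 rises was 3 or 4 without miR-222 replicate 4 or any single control array, and 3 with arrays centred on their medians. The count of 5 falls was 2 or 3 without miR-222 replicate 1 or 4 or control replicate 1, 2 or 3. Calls over all genes were fewer in such fits too, at 8.73% to 10.8% higher and 9.68% to 12.6% lower.

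**Figure D3:**
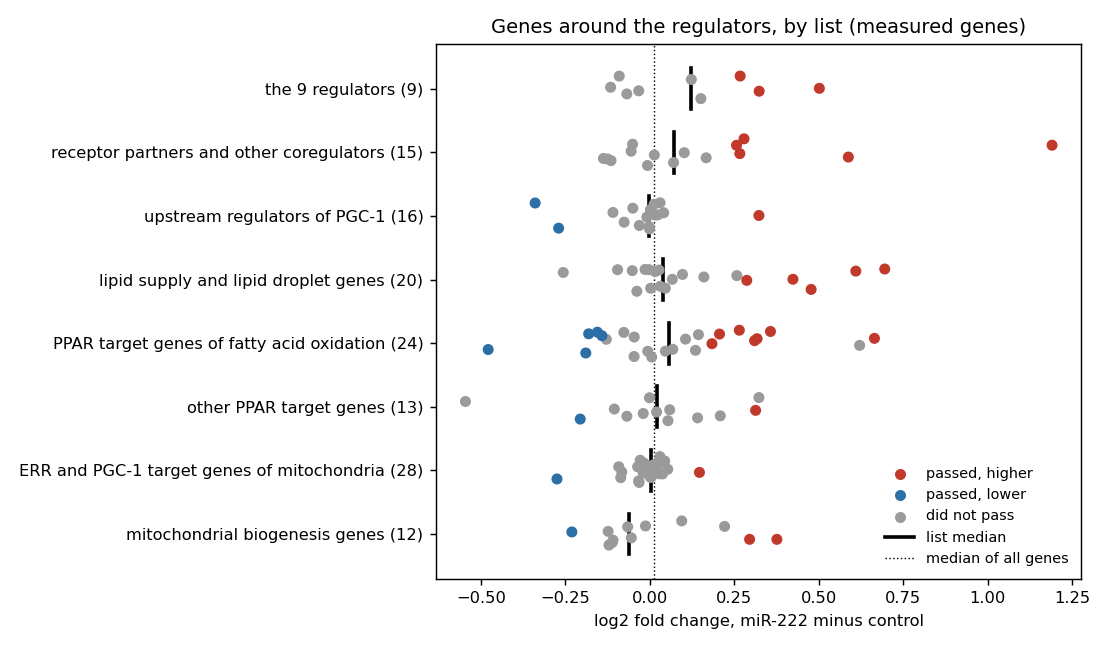
Log2 fold change, miR-222 minus control, of every measured gene in the lists around the regulators, with red and blue for genes that passed as higher and lower, a bar at each list median and a dotted line at the median of all genes. The rises of Rxrg at 1.19 and Dgat2 at 0.70 stand at the right, and the ERR and PGC-1 target genes of mitochondria lie between -0.27 and 0.15.

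Of 13 other PPAR targets, 1 rose, 1 fell and 11 did not pass, with a median of 0.02. The mitochondrial carrier gene Ucp2 had a fold change of -0.21 (SE 0.04, adjusted p = 0.00622). Fgf21, a secreted fasting factor, rose by 0.31 (SE 0.09, adjusted p = 0.0487) on a dim probe set, and of the fits without 1 array, the call was kept only in that without miR-222 replicate 3. Pdk4, a kinase that blocks pyruvate entry and a sensitive PPAR target in the heart, measured 10.74, 10.13, 10.58 and 10.71 with miR-222, against 10.18, 10.23, 10.41 and 10.04 in control cells. Replicate 2 of miR-222 lay among the control arrays, and the fold change of 0.32 (SE 0.14) did not pass (adjusted p = 0.167). The same array was the lowest for Txnip, a brake on glucose uptake, at 10.90 beside 11.80 to 12.05 on the other miR-222 arrays and 12.04 to 12.32 on control arrays, and its fold change of -0.55 (SE 0.24) did not pass (adjusted p = 0.159).

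Of 28 measured mitochondrial target genes of ERR and PGC-1, 1 rose, 1 fell and 26 did not pass, with a median of 0.00 and a range from -0.27 to 0.15. Sdhd of complex II was the member that fell, and the citrate synthase gene Cs rose by 0.15 (SE 0.04, adjusted p = 0.0303), a call kept when miR-222 replicate 2 was left out and lost when any of the other 7 arrays was. Of 12 genes of mitochondrial biogenesis, 2 rose and 1 fell, with a median of -0.06. They were Tfb2m, a factor that starts mitochondrial transcription, at 0.30 (SE 0.04, adjusted p = 0.0013), the mitochondrial RNA polymerase gene Polrmt at 0.38 (SE 0.07, adjusted p = 0.00792), and Polg, the mitochondrial DNA polymerase gene, at -0.23 (SE 0.04, adjusted p = 0.0059). Tfam, which packs mitochondrial DNA, had a fold change of -0.11 (SE 0.04, adjusted p = 0.111), and Nrf1 one of -0.05 (SE 0.05, adjusted p = 0.548).

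**Figure D4:**
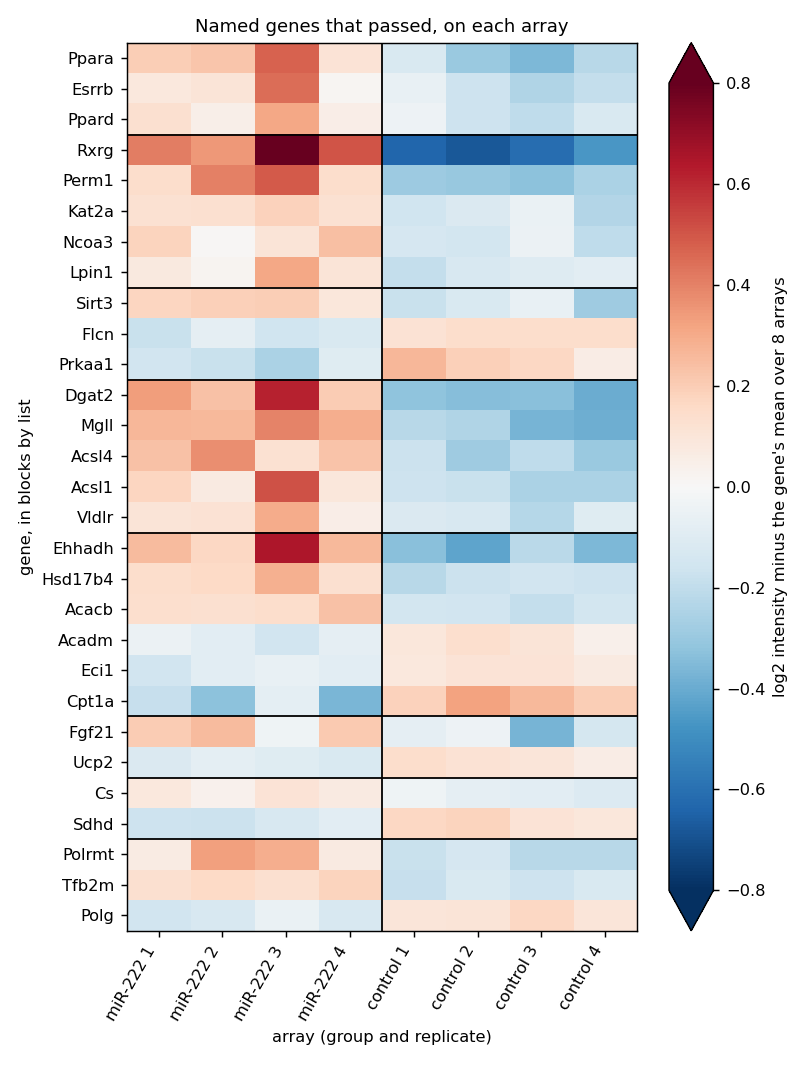
Log2 intensity minus the mean of the gene over 8 arrays, for the regulators that passed and up to 6 genes of each list, in blocks by list, with 4 miR-222 arrays left and 4 control arrays right. Red is above and blue below the mean of the gene, the scale ends at 0.8 in both directions, and miR-222 replicate 3 is deepest red for Ppara, Ppard and Esrrb.

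Summed marker levels of fibroblasts, smooth muscle, endothelium and cardiomyocytes were lower on every miR-222 array than on any control array, while those of macrophages, fat cells and erythroid cells overlapped. A sum weighs its brightest genes most, and single markers differed. Fold changes ran from -0.89 to -0.04 for fibroblast and from -0.91 to 0.16 for smooth muscle markers. They ran from -1.51 to 0.04 for endothelial markers (median -0.07) and from -0.61 to -0.01 for cardiomyocyte markers (median -0.14). The marker counts below stand beside 13% of all genes called lower and 11.7% called higher. The summed intensity of 8 fibroblast markers was 9672 to 10976 on miR-222 arrays, against 12047 to 13122 on control arrays, and 3 of the 8 fell, Lum, Postn and Fn1. Of 6 smooth muscle markers Tagln and Pdgfrb fell, with sums of 12582 to 15199 against 16157 to 16602 in control cells. Of 7 endothelial markers only Kdr fell, with sums of 1345 to 1458 on miR-222 arrays and 1911 to 2048 on control arrays. Of 9 cardiomyocyte markers 4 fell, Myh7, Ttn, Nppa and Ryr2, with sums of 71185 to 74141 with miR-222 against 80477 to 82024 in control cells. Fat cell markers were dim, from 5.79 to 8.76, and in limma 0 of 8 changed and 0 had an unadjusted p under 0.05. Their sums were 1318 to 1384 with miR-222 and 1205 to 1380 in control cells. Macrophage markers summed to 980 to 1153 with miR-222 and 971 to 1065 in control cells, with C1qa alone of 8 higher, and erythroid markers to 854 to 1134 with miR-222 and 794 to 1044 in control cells, with 0 of 4 called and 1 at an unadjusted p under 0.05. No marker was listed at 0. The part of these shifts in the changes of the regulators was not tested.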

How the data were processed

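Expression was measured on 8 Affymetrix arrays, 4 per group, in cells described in the report. The deposited intensity of each probe set was linear, from 0.8 to 16339, with array medians of 202 to 218.9. How the authors summarised and normalized these intensity values is not stated in the labels. Labelling was with biotin, per the labels' protocols. The series text names another rat array than the one whose annotation pairs with the probe sets, and that annotation was used. Of 29170 probe sets, 15310 paired with 1 gene, 323 with several and 13537 with none. No symbol changed when 15279 were looked up in a current RefSeq table. Depth does not apply to arrays, whose number limits the precision.

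The deposited values were taken as log2 with no pseudocount and compared with limma 3.58.1 (lmFit, eBayes) in R 4.3.3 over all probe sets, with 2-sided p-values and a threshold of 0.05 after Benjamini-Hochberg adjustment. Genes were represented by their brightest probe set. The fit was tested on simulated data. Alternatives were log2 of the value plus 16, a minimum mean log2 intensity of 6, quantile normalization, median centring, eBayes with trend and robust, array weights, adjustment over probe sets with 1 gene, the mean of a gene's probe sets, and leaving out each array. Named genes were the members, up to 6 called genes of each list by smallest p, and the 3 genes nearest to each called member. Others, and the half-site motif, were named after their values were seen. The members and lists were chosen with earlier results of these data known. The replicates are numbered in the order of listing. Plots and sequence searches used Python 3.11.15 and matplotlib 3.10.9.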

Additional observations from a re-analysis of the deposited data

Results flagged for a closer look

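In 6 of 70 groups of 4 arrays tested, 1 array stood apart from the other 3 by Dixon's criterion, which chance meets in about 1 in 20 groups. None was a member, and each array is given with the range of the other 3 in log2 intensity. Kat2a was at 9.16 in miR-222 replicate 3, beside 9.09 to 9.10. Flcn was at 10.61 in control replicate 1, beside 10.64 in the others. Acacb was at 10.94 in miR-222 replicate 4, beside 10.84 to 10.85, and at 10.52 in control replicate 3, beside 10.56. Fgf21 was at 6.69 in miR-222 replicate 3, beside 6.93 to 6.98. Polg was at 9.49 in control replicate 3, beside 9.41 to 9.42. All 6 gaps were smaller than the fold change of the gene.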

How the results depend on the processing

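Across 16 alternative settings, including each array left out, 6 of the 9 members kept their side of the threshold throughout, Ppara among them. Ppard and Esrrb lost their calls in 5 and 10 settings, Pparg gained one in 1, and no member changed sign. Of 35 other genes named by the rule, 24 kept their call in all settings and 0 changed direction. With arrays centred on their medians Ppard stood at 0.24 (adjusted p = 0.0618 by limma) and Esrrb at 0.30 (0.0739). That setting left 1 member called higher, 3 coregulators higher, 1 lipid supply gene lower, 3 oxidation targets higher and 3 lower, and 0 other PPAR targets and 0 mitochondrial targets higher. Esrrb also lost its call at 0.30 under quantile normalization, at 0.26 with array weights and at 0.32 with the mean of all probe sets, where 0 mitochondrial targets were higher. With trend and robust moderation, 11 oxidation targets were higher and 3 mitochondrial targets, 2 coregulators and 2 lipid supply genes lower. The share of all genes called was not computed for that setting, for median centring or for the other alternatives that kept every array. Whether these counts moved more than those of all genes is therefore not known. The lipid supply count of lower genes was 1 with 16 added, with the intensity minimum, with array weights and with adjustment over probe sets with a single gene. The coregulator count of lower genes was 1 with the intensity minimum, 1 with array weights and 2 with the last. Array weights gave 2 other PPAR targets higher. Without single arrays, Ppard ranged from 0.21 to 0.30, Esrrb from 0.23 to 0.37 and Pparg from 0.11 to 0.23. The members called higher ranged from 1 to 3, coregulators from 3 to 5 higher and 0 to 1 lower, lipid supply genes from 0 to 1 lower, oxidation targets from 3 to 7 higher and 2 to 5 lower, and other PPAR and mitochondrial targets each from 0 to 1 higher. Over all genes, 8.73% to 10.8% were called higher and 9.68% to 12.6% lower in these fits. The cause of these shifts was not tested. No paired analysis was possible because the labels give no replicate numbers that join arrays of both groups. Signal over background was not assessed here.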
